A study of Mus musculus with 2 samples.

Results

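Imprinted growth genes were followed in nuclei of the developing mouse kidney. They were 10 genes, chosen by symbol from the 32285 genes of the count tables: H19, Igf2, Cdkn1c, Kcnq1ot1, Dlk1, Meg3, Rian, Peg3, Igf2r and Grb10. The choice was made with earlier results of these data known. Each symbol matched 1 row in both tables. Whole kidneys were pooled from male and female mice, and each age, E18.5 and P3, gave 1 library of nuclei. The E18.5 kidneys carried floxed alleles, Mycf/f;Mycnf/f, without Cre and on a mixed background, and the P3 kidneys were wild type C57BL/6J. The age of the mice cannot be told apart from their genotype, their background or the library, and with 1 library per age no test between the ages was possible.

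An imprinted gene is transcribed mainly from the allele of a given parent, and its allele choice is set by methylation laid down in the germ line. The paternally expressed members of this group tend to promote growth, as the ligand Igf2 does, and maternally expressed members such as Cdkn1c, Igf2r and Grb10 tend to restrain it. Many belong to a network that is high in fetal tissue and falls after birth. UMIs (unique molecular identifiers, which mark captured transcripts) do not show the parental allele, so imprinting itself was not measured here.

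The genes lie in 5 regions of the mm10 genome, with the H19 and the Kcnq1ot1 domains of chromosome 7 counted together. Positions are from the GENCODE M21 annotation. On the minus strand of chromosome 7, the noncoding RNA gene H19 spans chr7:142575529-142578143 and Igf2 spans chr7:142650766-142666816. Farther along this strand, the long antisense RNA gene Kcnq1ot1 spans chr7:143203458-143296549 and Cdkn1c spans chr7:143458339-143461050. Dlk1 (chr12:109452823-109463336), Meg3 (chr12:109541001-109571726) and Rian (chr12:109603940-109661716) lie on the plus strand of chromosome 12. The remaining genes, all on minus strands, are Peg3 (chr7:6703892-6730431), Igf2r (chr17:12682406-12769664) and Grb10 (chr11:11930508-12038683). In the tables the identifiers are ENSMUSG00000000031 (H19), ENSMUSG00000048583 (Igf2), ENSMUSG00000037664 (Cdkn1c), ENSMUSG00000021268 (Meg3), ENSMUSG00000097451 (Rian), ENSMUSG00000002265 (Peg3), ENSMUSG00000040856 (Dlk1), ENSMUSG00000101609 (Kcnq1ot1), ENSMUSG00000023830 (Igf2r), ENSMUSG00000020176 (Grb10). Kcnq1ot1 runs antisense inside Kcnq1, and Igf2r overlaps the antisense RNA gene Airn. Whether counting used the strand is not given in the sources used here, so the reads of these overlapping genes may not be fully separated.

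Several of the transcripts also carry microRNAs, which the nuclear libraries do not measure in mature form. RefSeq (GRCm38.p6) places mature microRNAs on the same strand inside 4 of the 10 genes. For each of these genes a pair of mature forms is shown, because the host transcripts are described by age and cell type below. Those of miR-1906 in Meg3 and of miR-341 and miR-1188 in Rian are not shown. The capitals mark the seed, bases 2 to 8, through which a microRNA pairs with its targets.
miR-675-5p, in H19 (chr7:142577112-142577133, minus strand): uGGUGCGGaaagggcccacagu
miR-675-3p, in H19 (chr7:142577078-142577099, minus strand): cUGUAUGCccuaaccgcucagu
miR-483-5p, in Igf2 (chr7:142654968-142654989, minus strand): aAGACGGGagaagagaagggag
miR-483-3p, in Igf2 (chr7:142654932-142654952, minus strand): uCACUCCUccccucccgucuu
miR-770-5p, in Meg3 (chr12:109563710-109563731, plus strand): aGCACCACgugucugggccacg
miR-770-3p, in Meg3 (chr12:109563744-109563765, plus strand): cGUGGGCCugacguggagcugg
miR-370-5p, in Rian (chr12:109618270-109618289, plus strand): cAGGUCACgucucugcaguu
miR-370-3p, in Rian (chr12:109618305-109618326, plus strand): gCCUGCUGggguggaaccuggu
All 13 mature microRNAs placed inside these genes, shown or not, had 13 distinct seeds, so no seed was shared.

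After quality limits, 21270 nuclei with 77321253 UMIs remained at E18.5 and 11765 nuclei with 70055219 UMIs at P3, and 69 barcodes occurred in both libraries. Median depths were 3132.5 and 4534 UMIs per nucleus. Nuclei were clustered without the imprinted genes and named from markers outside the list, which gave 11 classes that could be compared between the ages, each called by its markers (podocyte-like and so on). Clusters without a name held 39.0% of the nuclei at E18.5 and 25.2% at P3. Levels are CPM, the UMIs of a gene summed over a class and scaled to the UMIs of all genes in that class. Intervals are exact at 95% and cover counting error only, because nuclei are not replicates.

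In the whole libraries, 5 of the 10 genes were at least 2-fold lower at P3 and 0 were at least 2-fold higher. Among all 9043 genes with at least 20 CPM at either age, 8.61% were as much lower and 3.23% as much higher. Because the 10 genes were chosen with earlier results of these data known, this contrast is a description only. Dlk1, which encodes a transmembrane Notch-like protein of immature cells, differed most, with 24.8 CPM at E18.5 and 3.23 CPM at P3, a ratio of 0.130 (0.113 to 0.150). Igf2, the fetal growth factor, was at 93.6 and 18.1 CPM, a ratio of 0.193 (0.182 to 0.205). H19 was at 95.7 and 22.6 CPM, a ratio of 0.236 (0.224 to 0.25). Cdkn1c, the cyclin-dependent kinase inhibitor p57, was at 455 and 135 CPM, a ratio of 0.298 (0.291 to 0.305). Meg3 was at 377 and 187 CPM, a ratio of 0.495 (0.485 to 0.505), close to the 2-fold limit, and it passed the limit no longer, at 0.526, without called doublets.

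By the undivided ratio of the whole libraries, the other members changed less. Rian, a noncoding RNA of the Meg3 region, lay just outside the limit at 0.528 (0.507 to 0.550), followed by Igf2r, the receptor that removes Igf2, at 0.589 (0.575 to 0.604). Grb10, an adaptor that dampens insulin and insulin-like growth factor receptors, was at 0.656 (0.647 to 0.665). Kcnq1ot1, which silences genes around it in cis, was at 0.795 (0.787 to 0.804), and the zinc finger gene Peg3 at 0.882 (0.859 to 0.905).

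Differences between the libraries that were not particular to imprinted genes moved with these ratios. The Cell Ranger release named in the headers differed between the libraries, and releases differ in whether intronic reads are counted by default, so this setting may bear on every ratio of the ages and cannot be told apart from age. The ratio of P3 to E18.5 depended on the annotated span of a gene. Of the 565 genes under 5 kb, 57.0% were at least 2-fold lower at P3, with a median ratio of 0.466. Of the 2103 genes of 5 to 20 kb, 16.4% were, with a median ratio of 0.749. Of the 4469 genes of 20 to 100 kb, 2.15% were, with a median of 0.967. Of the 1906 genes over 100 kb, 0.892% were, with a median of 1.19. H19, with a span of 2.62 kb, and Cdkn1c, with 2.71 kb, belong to the shortest genes, whereas Dlk1 spans 10.5 kb and Igf2 16.1 kb. Among genes of like span, 0.0951% had a lower ratio than Dlk1 and 0.190% a lower one than Igf2. For H19 this share was 8.67% and for Cdkn1c 21.1%. For the longer genes it was 2.04% for Meg3, 2.60% for Rian, 3.15% for Grb10, 4.52% for Igf2r, 22.5% for Kcnq1ot1 and 35.5% for Peg3. When each ratio was divided by the median of genes of like span, 2 of the 10 genes were still at least 2-fold lower. They were Dlk1 at 0.174 and Igf2 at 0.258, while H19 stood at 0.507 and Cdkn1c at 0.639. Meg3 (0.512), Rian (0.546), Grb10 (0.551) and Igf2r (0.609) then lay below Cdkn1c, and Kcnq1ot1 (0.822) and Peg3 (0.911) above it. This correction was chosen after the data were seen. The share of all genes past 2-fold after it was not computed, so the counts after division have no background beside them.

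**Figure D1:**
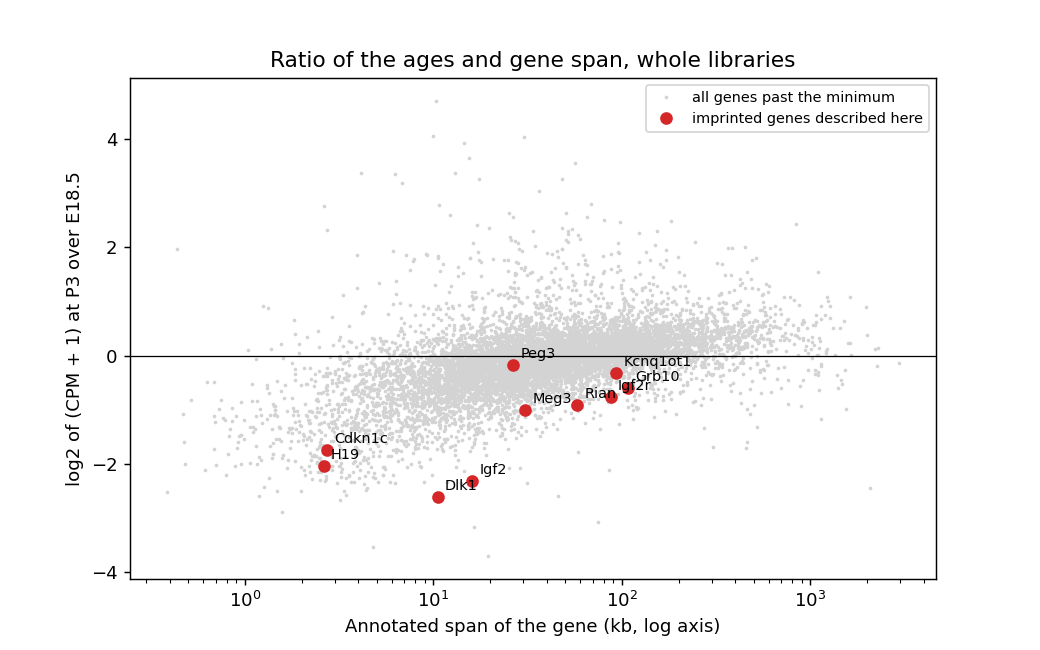
Ratio of the ages against gene span for all genes with at least 20 CPM at either age. Each grey point is a gene, the x axis is the annotated span in kb and the y axis the log2 ratio of P3 to E18.5 with 1 CPM added. The red points are the 10 imprinted genes: H19 and Cdkn1c sit within the cloud of short genes that were lower at P3, and Dlk1 and Igf2 sit below most genes of their span.

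Hemoglobin UMIs, which may come from RNA outside nuclei, also differed between the libraries. The summed level of the hemoglobin genes Hba-a1, Hba-a2, Hbb-bs and Hbb-bt, which kidney cells should lack, ranged from 566 to 1177 CPM over 13 classes at E18.5 and from 58.1 to 214 CPM over 12 classes at P3. Over the 11 shared classes its ratio ranged from 0.0850 to 0.184. Over the same classes the ratio of H19 ran from 0.123 to 0.914, with a median of 0.174. That of Igf2 ran from 0.0402 to 0.304, with a median of 0.171. Both medians lay inside the hemoglobin range, and the highest ratio of each gene lay above it. The lowest ratio of Igf2, in distal tubule-like nuclei with 2 UMIs at P3, lay below it. RNA outside nuclei was not measured directly, and its part in these ratios was not tested.

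**Figure D2:**
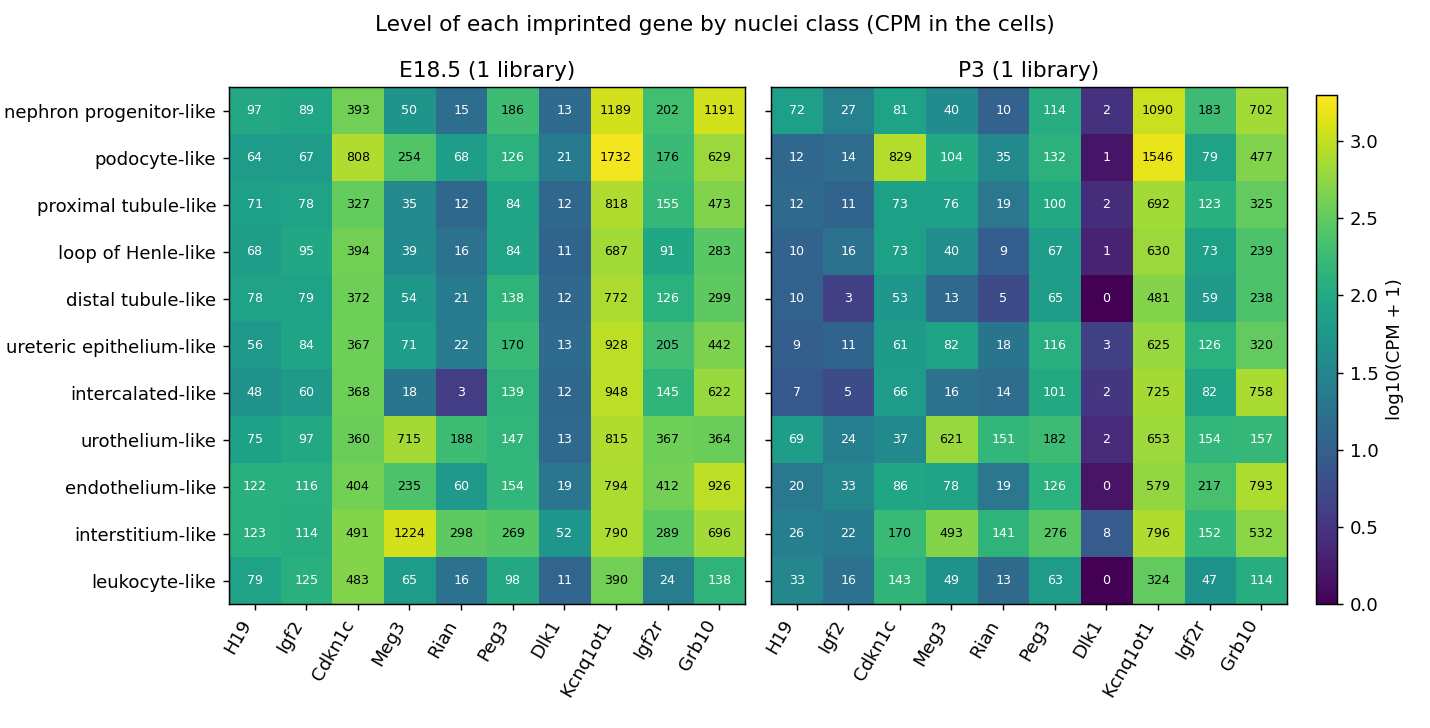
Level of each imprinted gene in 11 nuclei classes at E18.5 (left) and P3 (right). Rows are classes, columns are genes, the number in a cell is the CPM rounded to a whole number and the colour is log10(CPM + 1). Cdkn1c is highest in podocyte-like nuclei at both ages, and Meg3 and Rian in interstitium-like and urothelium-like nuclei. Igf2 at E18.5 ranges from 60 CPM in intercalated-like to 125 CPM in leukocyte-like nuclei.

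Within the 11 classes, 95 combinations of gene and class had at least 20 CPM at either age. Of these, 44 were at least 2-fold lower at P3 and 1 was at least 2-fold higher. Over all genes, 12.8% of such combinations were lower and 4.9% higher. After division by the median of genes of like span in each class, 38 combinations were lower and 1 was higher. The shares of all genes given here hold for undivided ratios, and those after division were not computed. The lower combinations were spread unevenly over the genes: 11 of 11 classes for Igf2, 10 of 11 for Cdkn1c, 9 of 11 for H19, and 0 of 11 for Kcnq1ot1. Of all genes under 5 kb, the span of Cdkn1c and H19, from 47.5% to 66.8% were lower in these classes. Of genes of 20 to 100 kb, the span of Kcnq1ot1, only 2.79% to 10.1% were, so its 0 of 11 lay near that share. After division by the median of like span, 11 classes remained for Igf2, 7 for Cdkn1c and 7 for H19.

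The classes differed in how many of the genes were lower, and in the share of all genes that were. In distal tubule-like nuclei 7 of 9 genes were lower, against 18.1% of all genes, and 0 were higher, against 4.82%. Some of these rest on few UMIs and passed the minimum of 20 CPM at E18.5 only. Igf2 went from 41 to 2 UMIs, H19 from 40 to 6, Meg3 from 28 to 8 and Rian from 11 to 3. The ratio intervals of Meg3, Rian, Peg3 and Igf2r in this class reached above 0.5. In intercalated-like nuclei 3 of 7 were lower (17.8%) and 0 higher (8.82%). In the other tubule classes 3 of 8 were lower in loop of Henle-like nuclei (12.5%), with 0 higher (4.27%), and 3 of 8 in proximal tubule-like nuclei (11.2%), with 1 higher (6.78%). Ureteric epithelium-like nuclei had 3 of 9 lower (11.1%) and 0 higher (2.58%), and urothelium-like nuclei 4 of 9 lower (14.3%) and 0 higher (6.72%). The share of lower genes was smallest in nephron progenitor-like nuclei, with 2 of 8 (9.11%) and 0 higher (4.44%). Podocyte-like nuclei had 5 of 10 lower (9.58%) and 0 higher (1.46%), and endothelium-like nuclei 5 of 9 lower (10.3%) and 0 higher (1.66%). In interstitium-like nuclei 6 of 10 were lower (11.9%) and 0 higher (2.13%), and in leukocyte-like nuclei 3 of 8 were lower (15.2%) and 0 higher (9.71%). Clusters of different kinds made up the interstitium-like class at the ages. The proximal tubule-like class held 1161 nuclei led by Grid1 and Stxbp5l at E18.5. At P3 the cluster led by these genes was named early nephron. The P3 loop of Henle-like class included a cluster with Ranbp3l and Prox1 among its leading genes. The P3 leukocyte-like class included a cluster with Ighm and Ikzf3 among them. All ratios of these classes, here and below, therefore do not separate age from a change of cells.

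**Figure D3:**
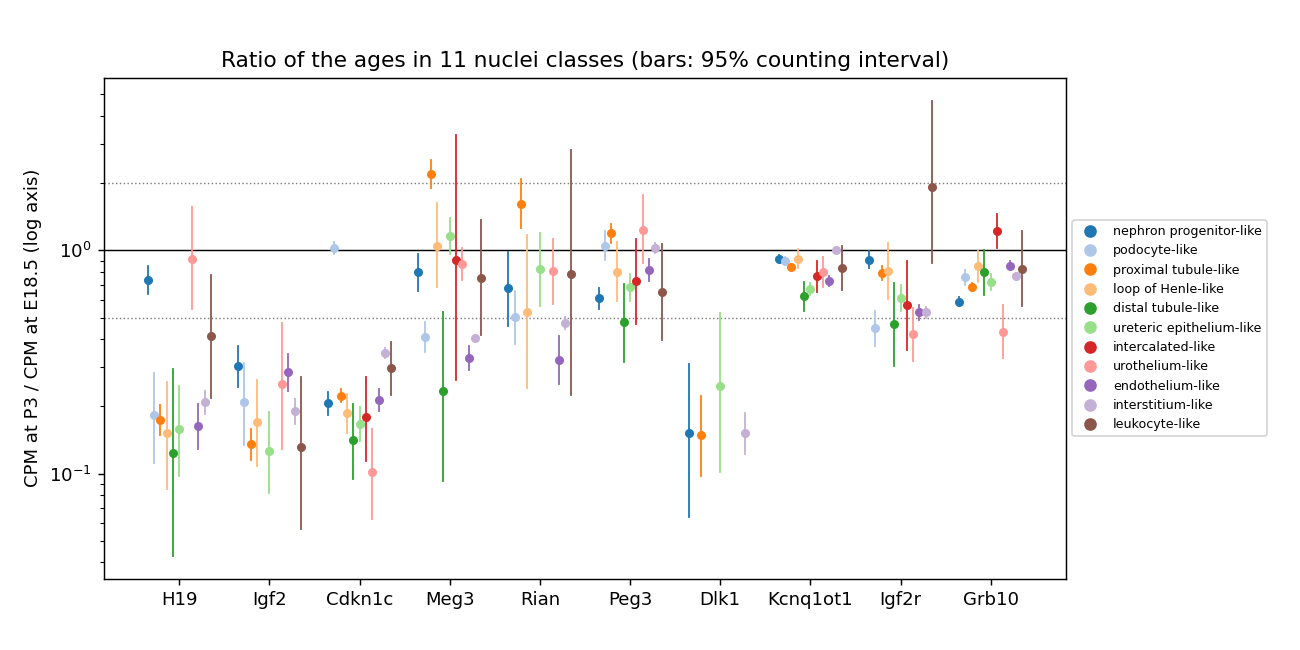
Ratio of P3 to E18.5 for each imprinted gene in each of 11 classes, on a log axis. Points are ratios, bars are 95% counting intervals, dotted lines mark 2-fold differences, and combinations with fewer than 4 UMIs at either age are not drawn. Igf2 lies between 0.127 and 0.304 in the 9 classes drawn, Cdkn1c below 0.5 except in podocyte-like nuclei, and H19 below 0.5 except in nephron progenitor-like and urothelium-like nuclei.

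H19 and Igf2 are neighbours that share enhancers and are expressed from opposite parental alleles. At E18.5 neither had a class 2-fold above the next. Igf2 ranged from 60.4 CPM in intercalated-like nuclei to 125 CPM in leukocyte-like nuclei, with a median of 89.2 CPM over 13 classes. H19 ranged from 48.3 CPM in intercalated-like to 123 CPM in interstitium-like nuclei, with a median of 75.2 CPM. The highest class exceeded the lowest 2.54-fold (1.56 to 4.46) for H19 and 2.07-fold (1.20 to 3.69) for Igf2. These extremes were picked from the same counts, and the intervals do not allow for that choice. Of 12 pairs of neighbouring classes in the order of levels, the ratio interval held 1 in 11 for H19 and in 12 for Igf2. Igf2 in endothelium-like nuclei, at 116 CPM (107 to 125), also lay above podocyte-like nuclei, at 66.6 CPM (60.1 to 73.6). Over the 13 classes, the level of Igf2 correlated with that of hemoglobin at r = 0.81, whereas for H19 r was 0.38; the classes share 1 library. At P3 the same correlations over 12 classes were 0.23 and -0.022.

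Among the 29 clusters at E18.5, Igf2 was highest in 1 cluster that received no name. It held 2875 nuclei with a median of only 1255 UMIs and had genes of ribosomal proteins and histones among its 10 leading genes, beside Igf2 itself. Igf2 was at 307 CPM there and H19 at 209 CPM, with hemoglobin at 2148 CPM. The whole-library ratios without this cluster and its hemoglobin-rich counterpart at P3 were 0.202 for Igf2 and 0.236 for H19.

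At P3 a class pattern of H19 stood out. H19 was at 71.6 CPM (280 UMIs) in nephron progenitor-like nuclei, which give rise to the nephrons, and at 68.8 CPM (45 UMIs) in urothelium-like nuclei, the lining of the urinary tract. These levels were not ordered, with a ratio of 1.04 (0.758 to 1.46). The next class, leukocyte-like nuclei, was at 32.6 CPM, and intercalated-like nuclei were lowest at 7.06 CPM. In both leading classes H19 stayed closest to its E18.5 level, with ratios of 0.738 (0.641 to 0.847) in nephron progenitor-like and 0.914 (0.545 to 1.57) in urothelium-like nuclei. In the 9 other classes the ratio ran from 0.123 in distal tubule-like to 0.415 in leukocyte-like nuclei. Among genes of like span, 75.4% had a lower ratio than H19 in nephron progenitor-like nuclei and 74.6% in urothelium-like nuclei. Nuclei with an H19 UMI after thinning to 1000 UMIs made up 6.56% (4.89 to 8.58) of nephron progenitor-like nuclei at P3, against 1.42% (0.962 to 2.02) of proximal tubule-like nuclei; unthinned shares were 25.0% and 9.19% at median depths of 4731 and 7676 UMIs.

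Igf2 did not keep this pattern. It fell from 89.2 to 27.1 CPM in nephron progenitor-like nuclei, a ratio of 0.304 (0.245 to 0.373), and from 97.2 to 24.5 CPM in urothelium-like nuclei, a ratio of 0.252 (0.129 to 0.474). Its highest class at P3 was endothelium-like nuclei at 33.0 CPM, not ordered against nephron progenitor-like nuclei (ratio 1.22, 0.939 to 1.58). Igf2 thus made up 27.5% (23.1 to 32.2) of the UMIs of both genes in nephron progenitor-like nuclei at P3 and 62.4% (55.7 to 68.8) in endothelium-like nuclei. At E18.5 the same shares were 47.9% (45.3 to 50.5) and 48.8% (46.1 to 51.6).

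Cdkn1c and Kcnq1ot1 share a second domain of chromosome 7, where Kcnq1ot1 silences Cdkn1c on the paternal allele. Cdkn1c, which holds cells out of the cell cycle, was highest in podocyte-like nuclei, the filtering cells of the glomerulus. There it was at 808 CPM (4671 UMIs in 1222 nuclei) at E18.5 and 829 CPM (1489 UMIs in 299 nuclei) at P3, a ratio of 1.03 (0.967 to 1.09). At E18.5 the 10 other classes ranged from 327 CPM in proximal tubule-like to 491 CPM in interstitium-like nuclei. At P3 these classes ranged from 36.7 CPM in urothelium-like to 170 CPM in interstitium-like nuclei, so that the podocyte-like level lay apart from all of them at both ages. The ratios of the ages in the 10 classes ran from 0.102 in urothelium-like to 0.346 in interstitium-like nuclei, and none of their intervals reached 0.5. After division by the median of genes of like span, Cdkn1c was no longer 2-fold lower in 3 of them: interstitium-like (0.833), leukocyte-like (0.621) and proximal tubule-like nuclei (0.504).

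**Figure D4:**
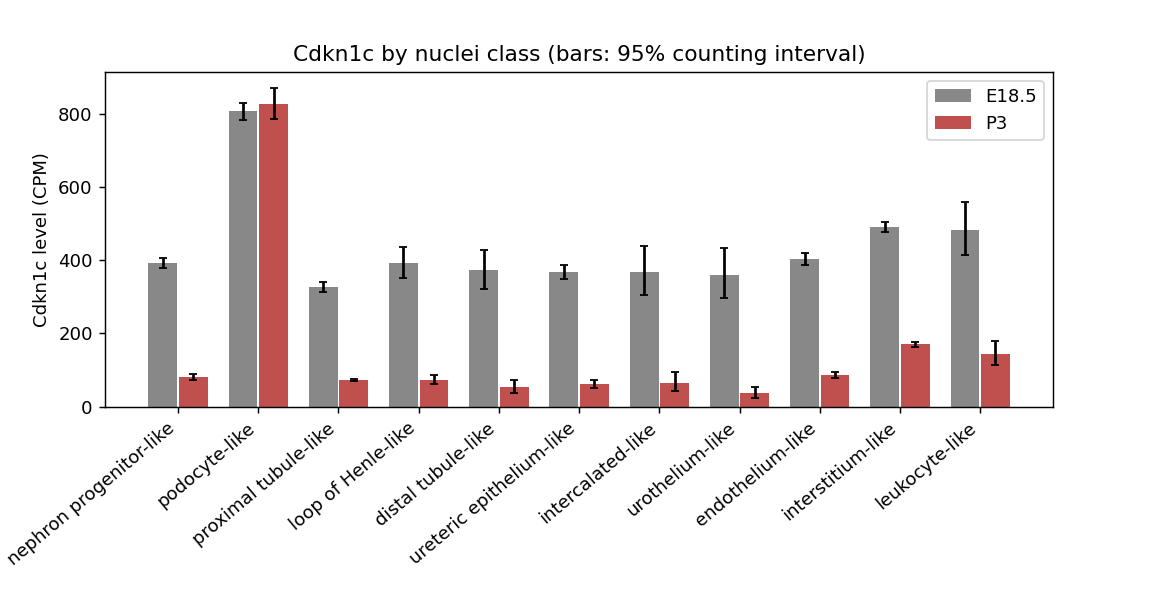
Cdkn1c level in CPM in 11 nuclei classes at E18.5 (grey) and P3 (red), with 95% counting intervals as error bars and 1 library per age. The podocyte-like bars stand at 808 and 829 CPM, and in the other 10 classes the P3 bar is lower than the E18.5 bar.

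Podocyte-like nuclei exceeded the next class 1.65-fold (1.58 to 1.71) at E18.5 and 4.87-fold (4.56 to 5.20) at P3. Cdkn1c was the only one of the 10 genes with at least 20 CPM whose leading class was at least 2-fold above the next at P3, and at E18.5 there were 0. Over all genes, 18.3% at E18.5 and 21.8% at P3 had such a class. Called doublets made up 36.6% of podocyte-like nuclei at E18.5 and 28.4% at P3. Without doublets the lead was 2.51-fold and 5.34-fold, and the ratio of the ages in podocyte-like nuclei was 0.802. In the podocyte-like clusters with the fewest called doublets, Cdkn1c was at 1317 CPM in 517 nuclei at E18.5 and 1234 CPM in 131 nuclei at P3. A podocyte-like cluster with Ndnf among its leading genes was lower at both ages, with 548 and 563 CPM.

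High Cdkn1c was also found in a stromal cluster that received no name. At E18.5 this cluster of 567 nuclei, led by Nrxn3, Lrfn5 and Kcnip1, had 1023 CPM of Cdkn1c and 1869 CPM of Kcnq1ot1. The hemoglobin-rich cluster at E18.5 had 1083 CPM of Cdkn1c but only 244 CPM of Kcnq1ot1, the lowest level of all 29 clusters.

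Among named classes Kcnq1ot1 was highest in podocyte-like nuclei too, at 1732 CPM at E18.5 and 1546 CPM at P3. Nephron progenitor-like nuclei followed at 1189 and 1090 CPM, and leukocyte-like nuclei were lowest at 390 and 324 CPM. The lead over nephron progenitor-like nuclei was 1.46-fold (1.42 to 1.5) and 1.42-fold (1.35 to 1.49). Unlike Cdkn1c, Kcnq1ot1 differed little between the ages, with ratios from 0.623 in distal tubule-like to 1.01 in interstitium-like nuclei. It spans 93.1 kb without annotated introns, and no class of this gene passed the 2-fold limit.

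Dlk1, Meg3 and Rian belong to the imprinted region of chromosome 12, in which Dlk1 is paternally expressed and the noncoding RNAs Meg3 and Rian are maternally expressed. Meg3 was highest in interstitium-like nuclei at E18.5, the stroma between the tubules, at a level of 1224 CPM, followed by urothelium-like nuclei with 715 CPM. At P3 the order turned, with 621 CPM in urothelium-like and 493 CPM in interstitium-like nuclei. The ratio of the ages was 0.403 (0.391 to 0.415) in interstitium-like nuclei and 0.868 (0.736 to 1.03) in urothelium-like nuclei. In nephron progenitor-like nuclei Meg3 was at 49.6 and 39.6 CPM, and in proximal tubule-like nuclei at 34.8 and 76.3 CPM.

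The proximal tubule-like value, a ratio of 2.19 (1.91 to 2.54), was the 1 higher combination. At P3, 94.1% of the 790 nuclei of a proximal tubule-like cluster led by Gm16311, Cyp2j5 and Hnf4aos were called doublets, and Meg3 was at 118 CPM there. The other proximal tubule-like clusters had 15.7 and 34.2 CPM. Without called doublets the ratio was 0.293, the opposite direction.

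Rian followed Meg3 closely. It was at 298 CPM in interstitium-like and 188 CPM in urothelium-like nuclei at E18.5, and at 141 and 151 CPM at P3, where these classes were not ordered (ratio 1.08, 0.870 to 1.32). Over the 27 clusters of each library with at least 50 nuclei, Meg3 and Rian correlated at r = 0.99 at E18.5 and r = 0.97 at P3. H19 and Igf2 did so at r = 0.70 and r = 0.71. These correlations describe clusters of 1 library and were not tested.

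Both transcripts had a sharp maximum in a small interstitium-like cluster with Ebf2, Sntg1 and Col6a6 among its leading genes. At E18.5 it held 156 nuclei, with Meg3 at 7253 CPM, Rian at 1668 CPM and Dlk1 at 549 CPM. Meg3, Rian and Dlk1 were themselves among its 10 leading genes at E18.5. At P3 a cluster with the same 3 genes among its 10 leading genes held 49 nuclei, with Meg3 at 4249 CPM, Rian at 1252 CPM and Dlk1 at 211 CPM. The P3 cluster was also led by Pparg, Plin1 and Car3, genes of fat cells, although the interstitial markers gave it its name. The clusters may thus hold different cells at the ages, and no ratio between them is given. Igf2 was at 166 and 70.4 CPM in these clusters and H19 at 264 and 113 CPM, which for H19 was the highest level of all clusters at both ages. In the same E18.5 cluster Peg3 (368 CPM) and Igf2r were also at their highest.

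**Figure D5:**
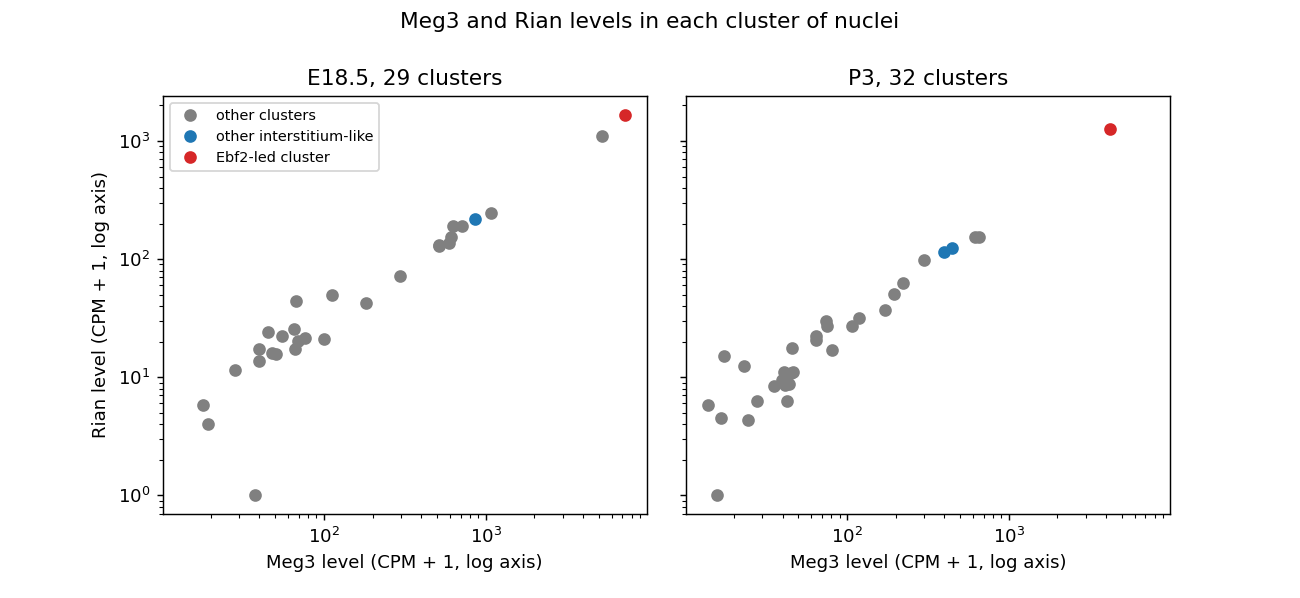
Meg3 against Rian in each cluster of nuclei at E18.5 (left, 29 clusters) and P3 (right, 32 clusters), as CPM + 1 on log axes. The red point is the cluster with Ebf2 among its leading genes, blue points are the other interstitium-like clusters, and grey points are all others. The red points lie at 7253 and 4249 CPM of Meg3, and the grey point nearest to the E18.5 one is a cluster of 19 nuclei.

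Leaving these clusters out was an alternative added after the data were seen. Interstitium-like nuclei then had 862 CPM of Meg3 at E18.5 and 421 CPM at P3, a ratio of 0.489 (0.472 to 0.506). Rian was then at 215 and 119 CPM, a ratio of 0.554 (0.518 to 0.592), no longer 2-fold lower. Dlk1 was at 22.6 and 4.04 CPM, a ratio of 0.179 (0.130 to 0.242). Of the 10 genes, 6 were at least 2-fold lower in interstitium-like nuclei with the clusters, against 11.9% of all genes. Without the clusters 5 were, and the share of all genes was not computed there. Another high level of Meg3, at 5230 CPM, was seen at E18.5 in a cluster of 19 nuclei led by neuronal genes such as Syt1 and Snap25, with Rian at 1108 CPM and Dlk1 at 145 CPM.

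Dlk1 was lower in whole classes. At E18.5 mural-like nuclei were at 56.2 CPM and interstitium-like nuclei at 52.4 CPM, not ordered (ratio 1.07, 0.730 to 1.53). Without the cluster with Ebf2 among its leading genes, interstitium-like nuclei were at 22.6 CPM and mural-like nuclei lay 2.48-fold above them (1.67 to 3.60). That cluster also had Dlk1 among its leading genes and was left out of the interstitium-like side only. A lower level on that side was thus bound to follow, and the interval does not decide the order. The lowest class, loop of Henle-like nuclei, was at 10.5 CPM. At P3 the highest class, interstitium-like nuclei, was at 7.94 CPM. Only 2 of the 11 classes compared between the ages reached 20 CPM, both at E18.5. With no class above 7.94 CPM at P3, a class that passed this minimum was bound to be called lower. Interstitium-like nuclei went from 513 to 108 UMIs, a ratio of 0.151 (0.122 to 0.187). Podocyte-like nuclei, of which 36.6% were called doublets at E18.5, went from 124 UMIs to 1 UMI, a ratio of 0.0260 (0.000652 to 0.147).

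The windows around the starts of Meg3 and Rian are shown because the levels of both transcripts ran in parallel over the clusters. They hold 250 bases before and 50 bases after a RefSeq start (GRCm38.p6), and the capitals mark the dinucleotide CG, the site of methylation. RefSeq windows were found for 8 of the 10 genes.
Meg3 (chr12:109540746-109541045, plus strand): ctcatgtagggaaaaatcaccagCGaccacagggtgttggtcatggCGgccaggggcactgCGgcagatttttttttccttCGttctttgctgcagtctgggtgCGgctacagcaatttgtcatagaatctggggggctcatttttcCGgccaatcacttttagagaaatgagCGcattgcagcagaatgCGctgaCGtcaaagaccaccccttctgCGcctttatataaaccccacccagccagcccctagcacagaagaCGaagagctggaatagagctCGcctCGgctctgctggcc
Rian (chr12:109603695-109603994, plus strand): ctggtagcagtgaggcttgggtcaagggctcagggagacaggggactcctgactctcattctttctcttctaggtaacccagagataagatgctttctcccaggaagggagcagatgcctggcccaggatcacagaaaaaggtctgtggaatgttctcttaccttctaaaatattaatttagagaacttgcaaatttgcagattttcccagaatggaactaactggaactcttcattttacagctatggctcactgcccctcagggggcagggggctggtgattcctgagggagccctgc
This Meg3 window held 13 CG, and 37.9% of 32851 windows of this length held at least as many. A second RefSeq start of Meg3 (window chr12:109545148-109545447) had 1 CG, and 94.6% held at least as many. The Rian window held 0. Methylation was not measured here.

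Peg3 was highest in interstitium-like nuclei, at 269 CPM at E18.5 and 276 CPM at P3, a ratio of 1.02 (0.975 to 1.08). At P3 a cluster of 1669 interstitium-like nuclei led by Fhl2, Ak5 and Clca3a1 had 383 CPM, whereas the cluster of 1231 nuclei led by Zfp536 and Synpo2 had 162 CPM. At E18.5 the class was mainly a cluster of 3016 nuclei that also had Zfp536 and Synpo2 among its leading genes. Without the cluster with Ebf2 among its leading genes, the E18.5 class was at 263 CPM. An E18.5 cluster of 1250 nuclei shared the leading genes Pcdh9 and Il1rapl2 with the P3 cluster of 1669 nuclei. It received no name and lay outside the class. The ratio of 1.02 thus does not separate age from the make-up of the class. The lowest class was proximal tubule-like nuclei at E18.5 (84 CPM) and early nephron-like nuclei at P3 (60.3 CPM). Peg3 was 2-fold lower in 1 of 11 classes, distal tubule-like nuclei, from 71 to 41 UMIs, a ratio of 0.475 (0.316 to 0.708). There 18.1% of all genes were as much lower. After division by the median of genes of like span the ratio was 0.520, no longer 2-fold lower.

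Igf2r and Grb10 act on the same growth factor pathway, the former as a decoy receptor and the latter inside the cell. At E18.5 Igf2r was highest in mural-like nuclei, the cells around vessels, at 424 CPM, and in endothelium-like nuclei at 412 CPM, with no order between them (ratio 1.03, 0.899 to 1.17). At P3 it was highest in endothelium-like nuclei at 217 CPM, above nephron progenitor-like nuclei at 183 CPM (ratio 1.19, 1.07 to 1.31). Leukocyte-like nuclei were lowest at both ages, at 24.4 CPM (9 UMIs) and 47.1 CPM (26 UMIs). Igf2r was at least 2-fold lower at P3 in 3 of 11 classes: podocyte-like (0.449), distal tubule-like (0.469) and urothelium-like nuclei (0.421). Of all genes, 9.58%, 18.1% and 14.3% were as much lower in these classes. Division by the median of genes of like span gave 0.493, 0.513 and 0.437, so that 2 classes remained.

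Grb10 was highest in nephron progenitor-like nuclei at E18.5, with 1191 CPM against 926 CPM in endothelium-like nuclei, a ratio of 1.29 (1.24 to 1.33). At P3 nephron progenitor-like nuclei were at 702 CPM, a ratio of the ages of 0.590 (0.565 to 0.616), and endothelium-like nuclei led at 793 CPM. The intercalated-like nuclei, acid-base cells of the collecting duct, were at 758 CPM and not ordered against them (ratio 1.05, 0.933 to 1.18). Leukocyte-like nuclei were again lowest, at 138 and 114 CPM. Only urothelium-like nuclei, from 364 to 157 CPM, were at least 2-fold lower at P3, where 14.3% of all genes were as much lower. After division by the median of genes of like span 2 classes were, urothelium-like (0.380) and nephron progenitor-like nuclei (0.459). Over the 27 clusters at E18.5, Igf2r and Grb10 correlated at r = 0.75, and at P3 at r = 0.59.

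Co-detection within interstitium-like nuclei, thinned to 1000 UMIs, was compared with the number expected if the genes were independent. Meg3 and Rian were found together in 449 of 3154 nuclei at E18.5, 1.31 times the expected number (1.19 to 1.43), and in 157 of 2944 nuclei at P3, 1.63 times (1.39 to 1.91). For Meg3 and Dlk1 the factors were 1.35 (1.09 to 1.67) and 2.24 (1.23 to 3.76). H19 and Igf2 were at 1.14 (0.826 to 1.53) and 1.26 (0.152 to 4.54), and Kcnq1ot1 and Cdkn1c at 1.0 (0.925 to 1.09) and 1.13 (0.979 to 1.30). H19 and Meg3, from different domains, were at 1.07 (0.924 to 1.22) and 1.11 (0.731 to 1.61). The intervals of the last 3 pairs held 1 at both ages. Without the clusters with Ebf2 among their leading genes, an alternative added after the data were seen, Meg3 and Rian were at 1.24 (1.11 to 1.38) and 1.53 (1.28 to 1.81), but the intervals of Meg3 and Dlk1 then held 1, at 0.937 (0.636 to 1.33) and 1.76 (0.708 to 3.63). Nuclei of different levels within the class can by themselves give factors above 1.

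Of 26 other imprinted genes with at least 20 CPM, 4 were at least 2-fold lower in the whole P3 library and 2 higher, against 8.61% and 3.23% of all genes. Their median log2 ratio of -0.05 was close to that of all genes, -0.07, and for the 10 genes the median was -0.96. The 10 genes and these lists were chosen with earlier results of these data known, so the contrast between them is a description and no independent comparison. In interstitium-like nuclei 6 of 26 were lower and 1 was higher, against 11.9% and 2.13% of all genes. Of 16 genes of the insulin-like growth factor axis, 1 was lower and 0 were higher in the whole library, and of 8 CDK inhibitors and G1 cyclins 0 were either. In interstitium-like nuclei the 5 lowest ratios of these lists belonged to Rtl1 (0.242) and Mirg (0.371), both from the Meg3 region, Ndn (0.260), Mest (0.367) and the binding protein gene Igfbp2 (0.313). The 5 highest belonged to Ano1 (2.02), Grb14 (1.98), Sfmbt2 (1.83), Trappc9 (1.58) and Cdk6 (1.54).

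Genes outside these lists were ranked by how alike their levels were over the 27 clusters of each library, among 7574 genes. Sned1 and the transcription factor gene Foxp2 were the nearest to both Meg3 and Rian. For Meg3 the lower r of the ages was 0.86 with each, and for Rian 0.84 with Sned1 and 0.85 with Foxp2. Fsd1l was nearest to both Igf2r (0.77) and Grb10 (0.85), and next came Prrc2b for Igf2r (0.76) and Zfp423 for Grb10 (0.81). Mmp23 (0.77) and Nes (0.75) were nearest to Cdkn1c, Mfap4 (0.74) to Peg3, Parva (0.74) to Kcnq1ot1, Rtraf (0.80) to Igf2, Ywhae (0.72) to H19 and Smarca1 (0.68) to Dlk1. Next came Il1rapl2 (0.71) for Peg3, Gm49969 (0.73) for Kcnq1ot1, Kdelr2 (0.75) for Igf2, Marcks (0.71) for H19 and Scarf2 (0.63) for Dlk1. These are descriptions over clusters that share a library, and of the 20 pairs ranked, 7 recurred among the nearest genes with Leiden clusters. They were Foxp2 for Meg3 and Rian, Fsd1l for Igf2r and Grb10, Zfp423 for Grb10, Nes for Cdkn1c and Mfap4 for Peg3.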

How the data were processed

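Nuclei of snap-frozen whole kidneys, freed by Dounce homogenisation, were sequenced with a 10x 3' kit. The authors deposited UMI counts per gene and nucleus from Cell Ranger, as unnormalised whole numbers. The processing notes name Cell Ranger 5.0.1 and mm10, whereas the headers of the matrices name 7.0.0 for the E18.5 library and 5.0.1 for the P3 library. The intron and strand settings are not given in the sources used here. The labels give a mixed background at E18.5 and C57BL/6J at P3, and the methods of the study a mixed background throughout.

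Nuclei over 3 median absolute deviations below the median log number of UMIs or genes, or above a limit on mitochondrial counts, were left out, which kept 21270 of 21600 barcodes at E18.5 and 11765 of 12216 at P3. Each library was clustered with scran 1.30.0, bluster 1.12.0 and igraph 2.1.4 in R 4.3.3 (2000 variable genes, 50 components, 10 neighbours) without 94 imprinted, growth factor and cell cycle genes. Clusters were named from 119 markers. A name needed at least 3 raised markers and no rival class above 0.8 of its score, erythroid nuclei needed Alas2 and mural nuclei a mural marker among the 10 leading genes; these last rules were set after the clusters were seen. Called doublets, 16.6% at E18.5 and 17.4% at P3, were kept, and leaving them out was an alternative. Early nephron-like nuclei were not compared between the ages because different clusters held that name, and mural-like nuclei were not because only 32 were found at P3.

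UMIs were summed per class as CPM with pandas 2.3.3, numpy 2.4.6 and scipy 1.17.1 under Python 3.11.15. Levels carry exact Poisson intervals, shares exact binomial intervals and ratios exact conditional binomial intervals at 95%. A difference was counted from 2-fold among genes with at least 20 CPM at either age, in classes of at least 50 nuclei. Nuclei were thinned to 1000 UMIs for detection and co-detection. With 1 library per age, no p-value was computed. The ratio intervals were tried on simulated counts with Poisson error only. Such counts hold no variation between nuclei, animals or libraries, so this check does not bear on it. Of the 32285 genes, 32235 matched GENCODE M21.

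The 10 genes, the marker lists and the comparison lists were chosen with earlier results of these data known. All 10 genes were named, with the 5 highest and 5 lowest ratios of the comparison lists in interstitium-like nuclei, and the 2 genes with the most similar pattern over clusters (log2 of CPM + 10, the lower r of both ages). Alternatives changed the clustering, doublets, scaling, minimum, fold and depth of thinning.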

Additional observations from a re-analysis of the deposited data

Results flagged for a closer look

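Meg3 moved in opposite directions in tubule classes: the ratio of P3 to E18.5 was 2.19 in proximal tubule-like nuclei and 0.235 in distal tubule-like nuclei. The difference was not tested, since each age had 1 library. In proximal tubule-like nuclei 38% of the P3 nuclei and 2.89% of the E18.5 nuclei were called doublets, and the distal tubule-like value rests on 28 and 8 UMIs. The part of doublets in the difference was not tested beyond leaving them out, which gave 0.293 in proximal tubule-like nuclei.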

How the results depend on the processing

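No paired analysis was possible because each age had 1 library. Of 810 ratios of the ages under an alternative, 34 crossed 1, and 1 of these was past 2-fold before: Meg3 in proximal tubule-like nuclei, at 0.293 without called doublets. The 33 others were not past 2-fold, among them H19 in nephron progenitor-like (1.44) and urothelium-like nuclei (1.67) and Grb10 in intercalated-like nuclei (0.996) after span division, and Cdkn1c in podocyte-like nuclei (0.802) without called doublets. The count of genes lower at P3 in the whole libraries was 5, became 8 at 1.5-fold and 2 after division by the median of genes of like span, and was 4 or 5 under the other alternatives. The 44 lower combinations of gene and class ranged from 34 to 53. Without called doublets the 1 higher combination was another, Meg3 in intercalated-like nuclei at 3.43. The count of higher combinations was 0 with Leiden clusters and at 3-fold, and 2 with 20 nearest neighbours, with a minimum of 10 CPM and at 1.5-fold. Genes whose leading class was 2-fold above the next numbered 0 at E18.5, but 1 without called doublets and with Leiden clusters, 3 at 1.5-fold and with classes of at least 200 nuclei, and 5 with 20 nearest neighbours. At P3 there was 1, but 2 with 20 nearest neighbours and at 1.5-fold, 3 with Leiden clusters and 5 with classes of at least 200 nuclei. Shares of all genes were computed under the main setting only. The counts under alternatives, of leading classes and of lower or higher genes, thus have no background and describe the settings more than the genes. Co-detection of Meg3 and Rian was 1.57 at 500 UMIs and 1.14 at 2000 UMIs at E18.5 and 2.16 at 500 UMIs at P3, and that of Meg3 and Dlk1 at E18.5 2.08 at 500 UMIs and 0.937 without the clusters with Ebf2 among their leading genes. The cause was not tested. With Leiden clusters 9 classes could be compared and with 20 nearest neighbours 10. Of the values for single genes, 659 stayed the same, 247 moved and 1 turned its direction. Most were judged by their counting interval, and leads between classes and the count of similar genes by a fixed limit. Depth limits the small classes, where Dlk1 and Rian rest on few UMIs.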
